A study of Mus musculus with 6 samples.

Results

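Fos, Fosb, Jun, Junb, Jund, Egr1, Nr4a1 and Atf3, transcription factor genes that T cells switch on within minutes to hours of stimulation, were followed here through single tumour-infiltrating T cells. They were chosen by name and are 8 of the 14597 genes of the count table. Live TCRβ+ cells were taken by sorting from tumours of B16-F10, a mouse melanoma line, 16 days after subcutaneous implantation. All mice were Foxp3-EGFP-DTR animals, in which the endogenous Foxp3 gene drives EGFP and a receptor for diphtheria toxin (DTx), so that the toxin removes cells expressing Foxp3. 3 samples came from animals given PBS and 3 from animals given DTx, and the mice were between 8 and 14 weeks of age by the methods, which give this for all experiments together. Cells carried a library number from 1 to 6 that no label tied to a sample, so the treatment of 0 of 12818 cells was known, no comparison of the treatments was made. The 6 libraries were treated as 1 pool with no p-value, and the number of libraries that share a direction is given as a description.

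The products of Fos and Fosb pair with those of Jun, Junb and Jund through leucine zippers to form AP-1, which binds DNA at activated promoters and enhancers. Immediate early genes such as these are transcribed from factors already present in the cell, without new protein synthesis, after T cell receptor (TCR) signals and also after growth factors, heat or handling of tissue. Enzymatic digestion of a tissue at body temperature is known to raise Fos, Jun, Egr1 and heat shock genes, so the same transcripts can report stimulation in the tumour and treatment of the sample. The methods describe digestion of tumours with collagenase and DNase for 30 min at 37 °C for flow cytometry, and for the sequenced cells they name a T cell enrichment before the sort. Whether the sequenced tumours were digested in the same way is not given in the sources used here. Egr1 encodes a zinc finger factor induced through the MAP kinase pathway, Nr4a1 encodes the orphan nuclear receptor Nur77, a common reporter of TCR signalling, and Atf3 encodes a bZIP factor induced by many kinds of stress.

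Promoter sequence is given for 4 of these genes to show short elements next to the start site. RefSeq promoter windows on GRCm38.p6, from 250 bases before to 50 bases after the start, were found for 7 of the 8 genes and not for Egr1. The windows were searched on both strands for TGACG, the core of the cAMP response element bound by CREB and ATF proteins, and for the AP-1-like element TGACNTCA. TGACG occurred in 20.8% of 32851 promoter windows of the same length and TGACNTCA in 8.83%. In the lines below the bases before the start are written 5′ to 3′ on the gene's own strand, and capitals mark TGACG, its reverse complement CGTCA, or TGACNTCA. The Fos stretch is chr12:85473770-85473889 (plus strand), the Jun stretch chr4:95052223-95052342 (minus strand), the Atf3 stretch chr1:191183334-191183453 (minus strand) and the Nr4a1 stretch chr15:101266596-101266845 (plus strand).
Fos: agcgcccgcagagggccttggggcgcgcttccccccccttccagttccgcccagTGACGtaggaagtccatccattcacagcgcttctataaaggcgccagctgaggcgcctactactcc
Jun: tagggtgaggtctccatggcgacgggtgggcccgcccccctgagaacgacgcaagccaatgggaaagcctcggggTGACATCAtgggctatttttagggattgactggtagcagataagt
Atf3: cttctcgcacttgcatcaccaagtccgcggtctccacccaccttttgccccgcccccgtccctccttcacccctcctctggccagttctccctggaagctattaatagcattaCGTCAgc
Nr4a1: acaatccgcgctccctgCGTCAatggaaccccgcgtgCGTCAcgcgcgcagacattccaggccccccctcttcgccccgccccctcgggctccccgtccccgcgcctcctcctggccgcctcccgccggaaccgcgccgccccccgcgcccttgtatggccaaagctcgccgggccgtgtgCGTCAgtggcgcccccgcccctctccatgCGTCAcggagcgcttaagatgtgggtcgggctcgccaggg

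The Nr4a1 window held 4 copies of CGTCA, at 233, 213, 69 and 40 bases before the start, and 0.231% of all windows held at least 4 copies of TGACG on either strand. The Nr4a1 start used by RefSeq lies inside the longest gene model of the GENCODE M21 annotation, in an intron of that model. Fos had TGACG at 129 and 66 bases before the start, of which the second is printed, Atf3 had it at 7 bases, and Jun had TGACNTCA at 45 bases. The Atf3 start used by RefSeq lies inside its GENCODE M21 gene model, 7 bases from the nearest GENCODE transcript start. In that annotation 7 bases of the printed Atf3 stretch are exon, so the marked element lies within a transcript there. Fosb and Junb each had 1 TGACG, at 60 and 106 bases, and Jund had neither element in its window. The AP-1 element TGANTCA, found in 7.81% of all windows, occurred in none of the 7. The CArG box (CCWWWWWWGG, with W for A or T), found in 1.63% of all windows, also occurred in none of the 7. Elements outside the windows were not searched. A match of letters is a description and shows no binding.

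In GRCm38, Fos spans 85473890 to 85477273 of chromosome 12 (plus strand), Fosb 19302696 to 19310051 of chromosome 7 (minus strand) and Atf3 191170296 to 191218039 of chromosome 1 (minus strand). Jun spans 95049034 to 95052222 of chromosome 4 (minus strand), Junb 84974484 to 84978718 of chromosome 8 (minus strand) and Jund 70698949 to 70700616 of chromosome 8 (plus strand), and each of these is a gene of 1 exon. Egr1 spans 34859823 to 34864984 of chromosome 18 (plus strand) and Nr4a1 101254269 to 101274795 of chromosome 15 (plus strand). Jun is overlapped by the antisense gene Junos, Jund by the antisense gene Gm11175 and the end of Junb by Prdx2 on the other strand. The sources used here do not say whether strand was used in counting, so the levels of the 3 Jun genes are uncertain to the extent that these reads could be split.

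The median cell of the table had 1250.5 UMIs from 583 genes, and the libraries differed in depth, with median UMIs per cell from 610 in library 3 to 2499.5 in library 4. A UMI of at least 1 of 6 T cell markers (Cd3e, Cd3d, Cd3g, Trac, Trbc2, Cd2) was found in 95.7% of cells. Gates were set by transcripts. A Cd4 UMI without one of Foxp3, Cd8a or Cd8b1 made a CD4+ Tconv cell (1205 cells), and Cd8a or Cd8b1 without Foxp3 or Cd4 made a CD8+ T cell (4497 cells). A Foxp3 UMI without Cd8a or Cd8b1 made a Foxp3+ cell (97 cells). A further 6838 cells, with a median of 956.5 UMIs, carried none of these transcripts. They held between 48.3% (Fosb) and 61.6% (Atf3) of the UMIs of each factor. Comparisons between gates therefore describe only part of the factor transcripts. Cd4 and Cd8 UMIs occurred together in 168 cells, which were left out of the gates. Foxp3 had 143 UMIs in 115 cells, so regulatory T (Treg) cells without a captured Foxp3 UMI can lie in the CD4+ Tconv gate. Their share of that gate was not measured. In these pooled counts, fewer cells expressing a gene and less RNA per cell cannot be told apart from a level alone. Intervals below are exact 95% intervals that cover counting error only.

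Transcripts of these genes were found in nearly all cells. A UMI of at least 1 of the 8 was present in 95.6% of cells, and the 8 genes together made 64.4 of every 10,000 UMIs (95% interval 64.0 to 64.7). The most frequent number of different genes per cell was 3, in 24.9% of cells, and all 8 were found in 36 cells. On the scale of UMIs per 10,000, which counts tagged transcript ends and is not divided by gene length, Junb had 24.3, Jund 18.7, Jun 8.60, Fos 4.61, Nr4a1 4.28, Egr1 2.25, Fosb 1.24 and Atf3 0.437 in the pool. The counting intervals of neighbours in this order did not overlap, and the libraries, whose levels follow, spread far more than the intervals.

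Among the Fos family, Fos had 5.44, 11.5, 7.28, 3.36, 2.14 and 1.65 UMIs per 10,000 in libraries 1 to 6. Library 2 held the highest level and library 6 the lowest, 6.95-fold apart. Fosb, a paralog of Fos that pairs with the same partners, had 1.63, 1.69, 2.52, 0.922, 0.966 and 0.657 in the same order, with library 3 highest. Among the Jun family, Jun had 13.2, 20.4, 13.9, 5.38, 3.29 and 3.59 UMIs per 10,000 in libraries 1 to 6, a 6.22-fold range. Junb, an AP-1 subunit abundant in activated T helper cells, had 30.6, 36.9, 34.5, 21.9, 17.4 and 15.7. Jund, the Jun gene least dependent on stimulation, had 24.1, 27.9, 30.9, 14.7, 13.5 and 12.3. Both ranges were narrower than that of Jun, 2.34-fold for Junb and 2.50-fold for Jund.

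Egr1 had 4.25, 2.19, 3.32, 2.16, 1.45 and 1.31 UMIs per 10,000 in libraries 1 to 6, so its highest level was in library 1 and not in library 2, where Fos and Jun peaked. Nr4a1 had 5.98, 4.73, 6.86, 3.97, 3.03 and 3.34, with the narrowest range of the 8 genes, 2.26-fold. Atf3 had 0.702, 0.270, 1.67, 0.222, 0.256 and 0.270, so library 3 stood apart from the other 5. The level of the highest library was at least 2-fold that of the lowest for 8 of 8 genes, beside 32.7% of the 7146 genes with at least 200 UMIs, whose median range was 1.73-fold. Libraries 1, 2 and 3 were the highest for all 8 genes and for 14.2% of those 7146 genes, although library 2 and library 4 differed little in Egr1, and library 2 and library 6 in Atf3. Summed over the 8 genes the level ran from 38.9 in library 6 to 106 in library 2.

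**Figure D1:**
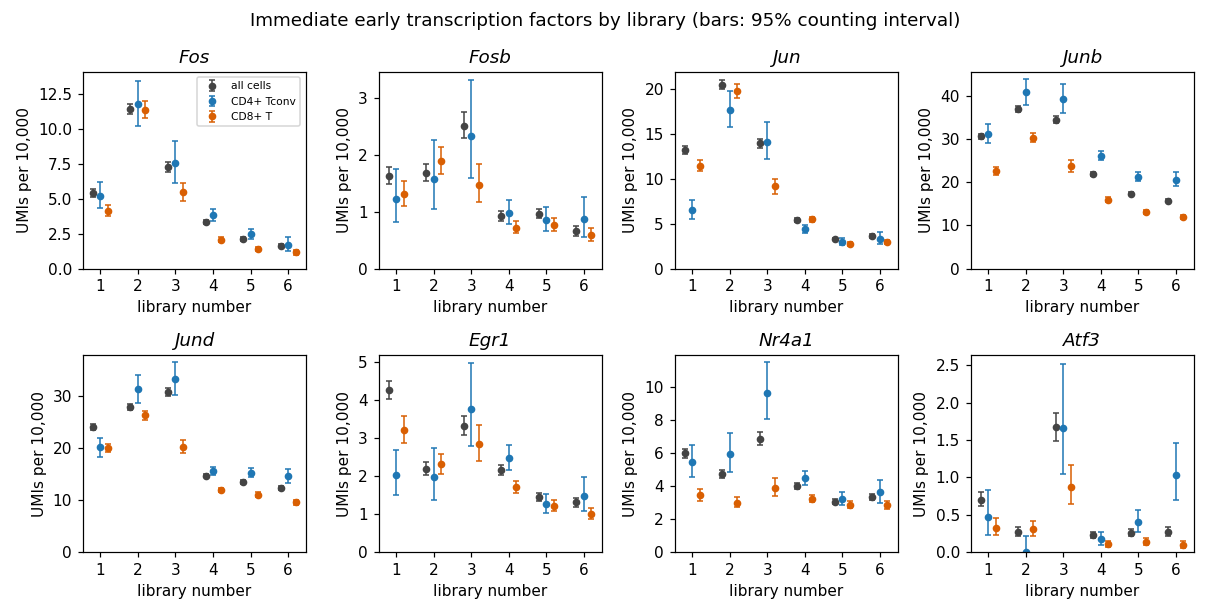
Level of each factor (vertical axis, UMIs per 10,000 UMIs, starting at 0) in libraries 1 to 6 (horizontal axis) for all cells, CD4+ Tconv cells and CD8+ T cells; points are pooled levels and bars their 95% counting intervals. Fos and Jun peak in library 2 in all 3 sets of cells, while Nr4a1 in CD8+ T cells stays between 2.86 and 3.88.

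Other measures moved with these library levels. The share of UMIs from ribosomal protein genes was 46.2% in library 2 and between 30.9% and 36.5% in the other 5. A list of 25 genes known to rise in dissociated tissue, which leaves out the 8 factors, summed to 228, 223, 256, 168, 129 and 138 UMIs per 10,000 in libraries 1 to 6. Its 10 heat shock genes summed to 118, 141, 136, 89.8, 63.5 and 76.3. Genes of this list may also respond to TCR signals, which was not tested, so a rise in it is not a reading of dissociation alone. A list of 25 TCR-induced genes other than the 8 summed to 37.3, 21.6, 35.8, 45.9, 43.4 and 39.5, lowest in library 2. A list of 7 quiescence genes (Ccr7, Klf2, S1pr1, Lef1, Tcf7, Il7r and Klf3) summed to 24.0, 44.9, 25.8, 11.2, 9.01 and 7.83, highest in library 2. Over all cells, libraries 1, 2 and 3, the highest for Fos and Jun, were the highest for dissociation-linked and quiescence transcripts and the lowest for TCR-induced transcripts. In CD4+ Tconv cells alone the TCR-induced list was highest in library 1, at 49.1 beside 47.4 in library 4. The part of any of these measures in the library levels was not tested. Treatment, handling and cell make-up are all carried by the library, so they cannot be told apart across libraries.

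Levels also varied with depth. Within libraries, the summed level of the 8 genes was 87.0 UMIs per 10,000 in the shallowest depth quartile of cells, then 73.5 and 64.0, and 55.5 in the deepest quartile. Jun fell by this measure from 12.3 to 6.71 and Junb from 32.1 to 21.1. Atf3 went the other way, from 0.304 to 0.490. For this reason cells with and without a transcript are compared below within library and within 10 bins of depth.

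Within CD8+ T cells the library range of Nr4a1 all but closed. Nr4a1 had 3.45, 2.99, 3.88, 3.23, 2.86 and 2.86 UMIs per 10,000 in the CD8+ T cells of libraries 1 to 6, a 1.36-fold range, and 9.05% of the 4787 genes measured in this gate had a narrower one. Fos in the same cells had 4.15, 11.4, 5.47, 2.07, 1.38 and 1.16, a 9.84-fold range, and Jun had a 7.20-fold range. In the CD8+ gate 6 of 7 genes with at least 200 UMIs ranged 2-fold or more, beside 39.4% of all genes there, and Nr4a1 was the exception. In CD4+ Tconv cells Nr4a1 had 5.45, 5.95, 9.66, 4.46, 3.20 and 3.63, a 3.02-fold range, led by library 3. There 6 of 7 genes again ranged at least 2-fold, beside 49.5% of all genes, and Junb with 1.98-fold was the exception. Atf3 had fewer than 200 UMIs in both gates. No Atf3 UMI was found in the 151 CD4+ Tconv cells of library 2, and the limit of 3 counts that a count of 0 allows is 0.168 UMIs per 10,000, or 1.99% of these cells with a UMI.

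CD8+ T cells carried less of most of these transcripts than CD4+ Tconv cells of the same library. Expected UMIs were taken from the CD4+ Tconv cells of each library and summed. The median log2 ratio of the 8 genes was -0.40, beside -0.05 over 10384 genes. Junb and Atf3 were lower by over 1.5-fold and none was higher, where 10.9% of all genes were lower and 8.98% higher by that much. Junb was at 0.647 of its CD4+ Tconv level (0.628 to 0.667) and lower in 6 of 6 libraries. Fos at 0.749 (0.696 to 0.807), Jund at 0.768 (0.741 to 0.796) and Nr4a1 at 0.677 (0.630 to 0.728) were also lower in every library without passing 1.5-fold. Jun was the gene that did not follow, at 1.11 times the CD4+ Tconv level (1.04 to 1.18), higher in 3 of 6 libraries and lower in the others. The intervals of Egr1 (0.817 to 1.01) and Fosb (0.760 to 1.01) included 1. Atf3 was at 0.416 (0.326 to 0.534), and without library 6, where CD4+ Tconv cells had 1.03 and CD8+ T cells 0.0905 UMIs per 10,000, its log2 ratio went from -1.26 to -0.63. With cells also matched by depth quartile the log2 ratio of Junb went from -0.63 to -0.56, short of 1.5-fold, and that of Jun from 0.15 to 0.34.

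The other lists differed more between the gates in their extremes than in their medians. Of the 25 TCR-induced genes 4 were higher and 11 lower by over 1.5-fold in CD8+ T cells, with a median log2 ratio of -0.50. Over all genes 8.98% were higher and 10.9% lower by that much. The highest were the chemokine genes Ccl4, 16.8 times the CD4+ Tconv level, and Ccl3, 6.99 times. The lowest were Cd40lg, the CD40 ligand of helper cells, at 0.133 and Tnfrsf4, encoding OX40, at 0.136. Nr4a2, the paralog of Nr4a1, was 1.91 times as high in CD8+ T cells (1.61 to 2.28) and higher in 6 of 6 libraries, opposite in direction to Nr4a1. Of the 25 dissociation-linked genes 0 were higher and 2 lower by over 1.5-fold, beside the same 8.98% and 10.9% of all genes. The 2 were Gadd45b at 0.587 and Cebpb at 0.631, and their number is near the share over all genes. The heat shock genes had a median log2 ratio of -0.21. The highest dissociation-linked genes, Hspe1 at 1.05 and Hspd1 at 0.997, lay near 1. Of 12 measured bZIP partner genes 3 were lower, among them Jdp2 at 0.388 and Crem at 0.542, and 0 were higher by over 1.5-fold, beside the same shares of all genes.

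**Figure D2:**
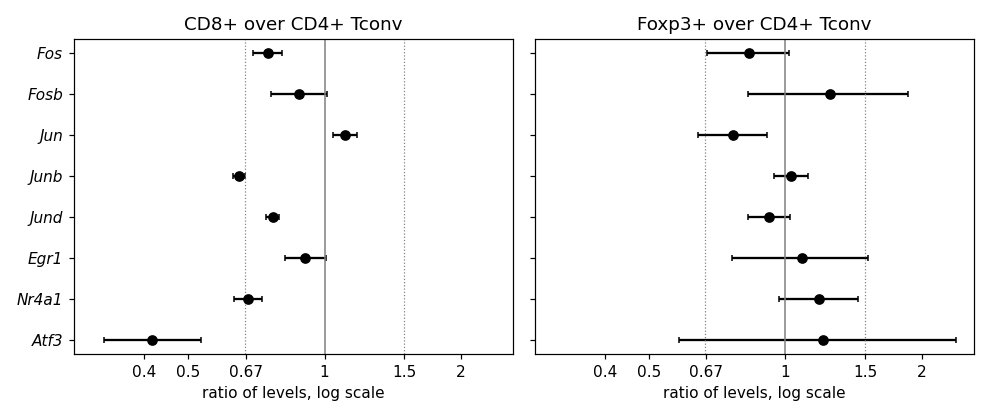
Ratio of the level in CD8+ T cells (left) and in Foxp3+ cells (right) to that in CD4+ Tconv cells of the same libraries, on a log axis, for the 8 factors; bars are 95% counting intervals, the solid line marks equal levels and dotted lines 1.5-fold. Junb and Atf3 lie beyond the 1.5-fold line in CD8+ T cells, and no factor does in Foxp3+ cells pooled over libraries.

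Foxp3+ cells were few, and their ratios to CD4+ Tconv cells had wide counting intervals and moved with the libraries used. Libraries 1, 2, 3 and 6 gave 49, 30, 17 and 1 of the 97 cells. Pooled over libraries, none of the 8 genes passed 1.5-fold in either direction, where 16.8% of 5196 genes were higher and 15.6% lower by that much. The median log2 ratio was 0.08, beside 0.05 over all genes. Jun was at 0.767 of the CD4+ Tconv level (0.641 to 0.913), and the intervals of the other 7 genes included 1. The Nr4a1 ratio was 1.19 (0.971 to 1.44), with 7.48, 9.05 and 5.35 UMIs per 10,000 in the Foxp3+ cells of libraries 1 to 3 beside 5.45, 5.95 and 9.66 in their CD4+ Tconv cells. Library 3 was the one in which Nr4a1 was lower in Foxp3+ cells. The gate was checked against the other 3 Treg genes listed. Ikzf2, encoding Helios, was 4.01 times as high in it (2.95 to 5.48), Ctla4, encoding an inhibitory receptor, 2.32 times (1.83 to 2.96) and Il2ra, encoding CD25 and also on the TCR-induced list, 3.20 times (2.08 to 4.97). Without library 1, log2 ratios went from -0.38 to -0.97 for Jun, from -0.27 to -1.03 for Fos and from -0.12 to -0.69 for Jund, and these values rest on 30 cells of library 2, 17 of library 3 and 1 of library 6. Without library 3 the log2 ratio of Atf3, from 13 UMIs in Foxp3+ cells, went from 0.26 to 1.02, and in cells with at least 1000 UMIs that of Jun was 0.00. Without library 2 those of Fos and Jund turned to 0.17 and 0.11. With each library given the same weight, 4 factors passed 1.5-fold, with log2 ratios of -0.74 for Fos, -0.64 for Jun, -0.62 for Jund and 0.63 for Atf3.

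Transcripts of each factor were concentrated in fewer cells than the depth of the cells would give. If the UMIs of a gene fell on cells in proportion to depth within each library, a certain number of cells would carry one, and the observed number was 0.969 of that for the median gene. It was 0.581 for Atf3, 0.619 for Jun, 0.660 for Fos, 0.664 for Egr1, 0.731 for Nr4a1, 0.769 for Fosb, 0.883 for Junb and 0.899 for Jund. All 8 lay below 0.913, the lowest decile of the 7146 genes. Those genes were not matched to the factors in number of UMIs, and the part of abundance in this rank was not tested. Atf3 was the most uneven, with 51.9% of its UMIs in 128 cells, the top 1%. The same number of cells held 17.0% of Fos, 12.8% of Jun, 13.8% of Nr4a1 and 6.46% of Jund UMIs. Cells with 5 or more UMIs numbered 532 for Fos, 1367 for Jun and 380 for Nr4a1. No cell type of the sort is known to lack these transcripts, so the share of cells that free RNA alone would give could not be measured.

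The 8 genes shared cells more often than independence within library and depth bin would give. All 28 pairs were above the expected number, 24 of them in every library, with a median of 1.13 times the expected number and a range of 1.04 to 1.75. The highest pairs were Fosb with Atf3 (167 cells against 95.7 expected, 1.75 times), Nr4a1 with Atf3 (334 against 213, 1.57 times) and Fos with Fosb (1009 against 645, 1.57 times). Fos with Egr1 reached 1.42 and Jun with Egr1 1.40. The pair of Jun with Nr4a1 was among the lowest at 1.06 and was above 1 in 4 of 6 libraries. The share of other genes found with a factor at over 1.2 times the expected number was 1.95% for Fos, 1.23% for Jun, 3.12% for Egr1, 1.81% for Nr4a1, 5.75% for Fosb and 13.4% for Atf3, and 12 of the 28 pairs passed that line. It was 0% for both Junb and Jund, which were seen in 81.8% and 79.8% of cells and so leave little room above the expected number.

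**Figure D3:**
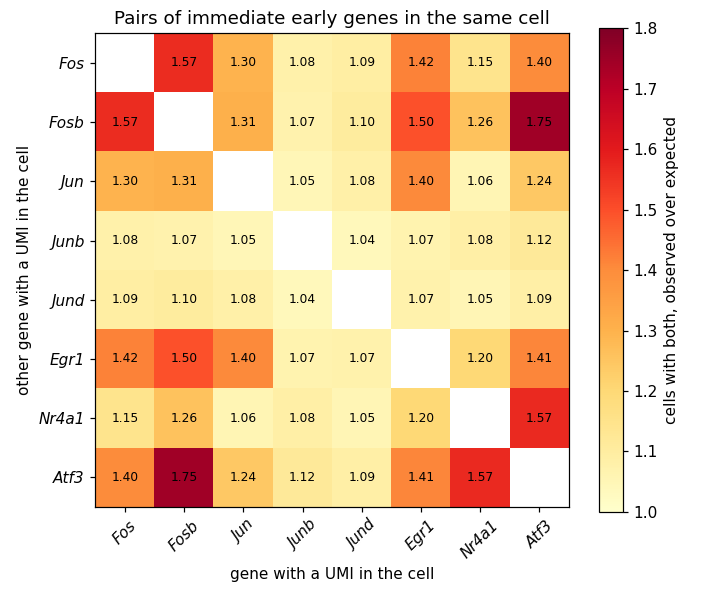
Number of cells with UMIs of both genes divided by the number expected if the genes were independent within library and depth bin, for each pair of the 8 factors (both axes). Colour runs from 1 to 1.8, and the darkest cells are Fosb with Atf3 (1.75), Nr4a1 with Atf3 (1.57) and Fos with Fosb (1.57).

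Cells with Fos, Jun and Egr1 transcripts carried more of the dissociation-linked list, and cells with Nr4a1 carried more of both lists. In the 4014 cells with a Fos UMI, 10 of 25 dissociation-linked genes were higher by over 1.5-fold than in matched cells without one, beside 2.86% of 9931 genes, with a median log2 ratio of 0.45. The median of the 25 TCR-induced genes was 0.00, beside -0.01 over all genes, and 3 were higher by over 1.5-fold. The leading dissociation-linked genes were Rhob, a small GTPase gene, at 2.54 times (2.26 to 2.86) and Hspa1a, an inducible HSP70 gene, at 2.32 times (2.25 to 2.39). The lowest were Hspd1 at 1.03 and Btg1 at 0.980. Of the TCR-induced genes the cytokine genes Tnf at 1.85 times (1.67 to 2.05) and Il2 at 1.84 times (1.31 to 2.61) led, and Tnfrsf9, encoding 4-1BB, at 0.696 (0.634 to 0.763) and Ccl4 at 0.831 (0.794 to 0.869) were lowest.

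Of the 8 factors, Jun gave the widest gap between the medians of these lists. In the 5231 cells with a Jun UMI the median log2 ratio was 0.67 for dissociation-linked genes, 13 of 25 of them past 1.5-fold beside 3.28% of all genes, and 0.71 for the heat shock genes. TCR-induced genes had a median of -0.04, with 4 higher and 4 lower by over 1.5-fold, where 2.54% of all genes were lower. Rhob at 3.51 times and Hspa1a at 3.10 times led, while Tnfrsf4 and Tnfrsf9 were each at 0.522. Tnf was 2.17 times as high (1.95 to 2.41) and higher in 6 of 6 libraries, and Ccl3 followed at 1.61 times. Klf2, a quiescence factor gene on the quiescence list, was 2.44 times as high in cells with Jun and 2.01 times in cells with Fos. It was the highest of its list in both. The median log2 ratio of the 7 quiescence genes was 0.06 in both sets of cells. In each set 1 of the 7 passed 1.5-fold upward, beside 3.28% of all genes for Jun and 2.86% for Fos.

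Nr4a1 differed from these in the genes that led. In the 4369 cells with an Nr4a1 UMI all 25 TCR-induced genes had a log2 ratio above 0, with a median of 0.35, and 6 passed 1.5-fold, beside 2.9% of all genes. Nr4a3, the third gene of the Nr4a family, was 2.55 times as high (2.28 to 2.86) and Nfkbid, encoding an inducible IκB protein, 2.15 times (1.99 to 2.33), both in 6 of 6 libraries. Ccl3 at 1.04 and Irf8 at 1.01 were lowest. The dissociation-linked genes had a median of 0.36 with 3 past 1.5-fold, led by Gadd45b at 1.85 times and Nfkbia, encoding IκBα, at 1.59 times, with Socs3 at 0.993 and Rhob at 0.971 lowest. Of the heat shock genes 0 of 10 passed 1.5-fold, and their median was 0.26. Rhob, which led in cells with Fos and Jun, was thus level in cells with Nr4a1, and Tnfrsf9, lowest there, was 1.18 times as high in cells with Nr4a1. Of 12 bZIP partners 4 passed 1.5-fold in cells with Nr4a1, led by Maff at 2.21 times and Fosl2 at 1.75 times, and Bach2, a repressor gene of quiescent cells, was lowest at 0.762. These cells had a median log2 ratio of -0.12 over the quiescence genes.

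The difference between Fos and Nr4a1 in the TCR-induced list was present within libraries, as far as libraries can be set side by side. Over libraries 1 to 6 the TCR-induced median in cells with Fos was -0.09, -0.23, 0.38, 0.13, 0.13 and 0.17, above 0 in 4. In cells with Nr4a1 it was 0.40, 0.33, 0.59, 0.55, 0.30 and 0.39, above 0 in all 6. The dissociation-linked median in cells with Fos ran from 0.39 to 0.72 and in cells with Nr4a1 from 0.14 to 0.50, lowest in library 5. Both factors were seen with more dissociation-linked transcripts in every library. No test compared the factors with each other. Heat shock genes in cells with Jun ran from 0.53 in library 4 to 1.03 in library 2.

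**Figure D4:**
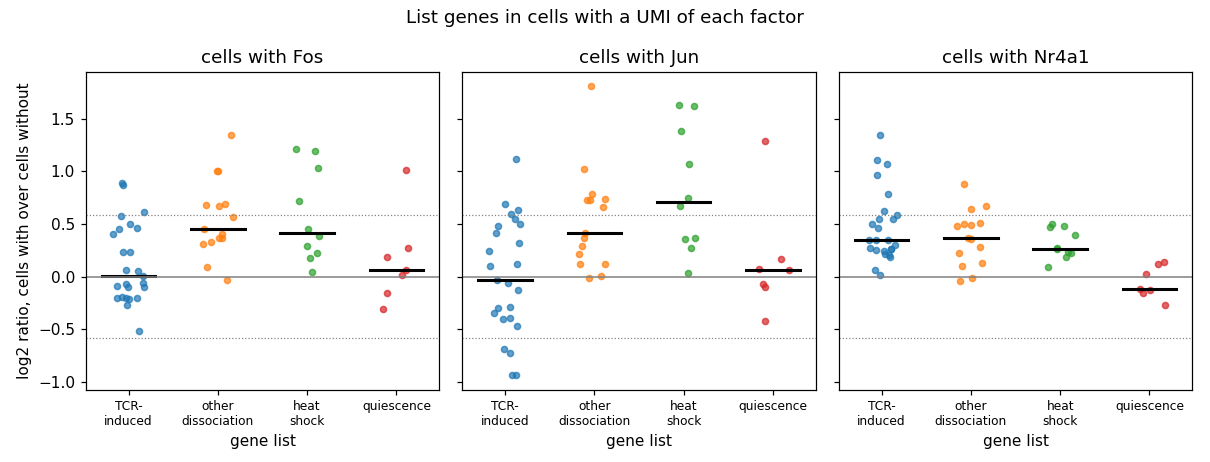
Log2 ratio (vertical axis) of each measured gene of 4 lists (horizontal axis) in cells with a UMI of Fos, Jun or Nr4a1 over cells without, matched by library and depth bin; bars are list medians, dotted lines 1.5-fold. TCR-induced genes centre on 0.00 in cells with Fos and on 0.35 in cells with Nr4a1, and heat shock genes on 0.71 in cells with Jun and 0.26 in cells with Nr4a1; "other dissociation" is the dissociation-linked list without its heat shock genes.

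Both list medians were above 0 in the pool for each of the other 5 factors. The TCR-induced median was above 0 in 6 of 6 libraries for Fosb and Jund, as for Nr4a1. It was above 0 in 5 libraries for Egr1 and Junb and in 4 for Atf3. The dissociation-linked median was above 0 in every library for all 5. In cells with Egr1 the medians were 0.13 for TCR-induced and 0.46 for dissociation-linked genes, with 5 and 9 genes higher by over 1.5-fold beside 2.8% of all genes. Of the TCR-induced genes 2 were lower by that much, beside 2.23% of all genes, and the paralogs Egr3 at 3.45 times (2.28 to 5.26) and Egr2 at 2.36 times (1.52 to 3.66) led the TCR-induced list. In cells with Fosb they were 0.13 and 0.38, with 2 and 9 past 1.5-fold beside 2.9%. In the 516 cells with Atf3 they were 0.29 and 0.53, with 7 and 11 past 1.5-fold beside 7.03%, and Cd40lg led the TCR-induced list at 2.24 times (2.03 to 2.47). In cells with Junb they were 0.55 and 0.90, with 12 and 16 genes higher by over 1.5-fold beside 10.5% of all genes and 0 lower beside 6.33%. In cells with Jund they were 0.21 and 0.53, with 4 and 9 genes higher beside 8.59% and 0 lower beside 6.41%. Cells without Junb numbered 2331 and cells without Jund 2591, smaller comparison sets than those of the other factors.

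For each factor the 3 genes with the highest ratio in its cells were listed, among genes with at least 100 UMIs that were higher in every library with 10 or more expected UMIs. They were Pxdc1 (3.37 times), Car7 (2.99) and Cxcl2 (2.86) for Fos, Pxdc1 (5.84), Klf4 (2.98) and Gm26532 (2.52) for Fosb, and Pxdc1 (3.55), Tmem176b (2.71) and Tmem176a (2.47) for Egr1. For Jun they were Gm20481 (4.11), Rhob (3.51) and Gm10501 (3.43). Gm20481 overlaps Hspa1a on the other strand and Gm10501 overlaps Hspa1l on the other strand, both on chromosome 17, so their reads cannot be told apart from heat shock transcripts without strand. For Nr4a1 they were Bex1 (5.31), Il17a (4.84) and Csf2 (3.54), the last 2 cytokine genes. For Atf3 they were Il13 (4.55), the epidermal growth factor family ligand gene Areg (4.08) and Lmna (3.29). For Junb they were Bex1 (9.20), Penk (7.75) and Hdc (6.76), and for Jund Gm11175 (13.0), Penk (7.71) and Rasd1 (6.71), of which Gm11175 lies antisense over Jund itself. Pxdc1, Car7, Bex1, Il17a and Rasd1 each had between 105 and 227 UMIs in the pool and were compared in 1 or 2 libraries. Il13 for Atf3, Penk and Hdc for Junb and Gm11175 for Jund had more UMIs but were also compared in 1 or 2 libraries.

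Among cell states marked by other transcripts, Jun and Nr4a1 had ratios on opposite sides of 1 in cells with Pdcd1, Ccr8 or Il13. They lay on the same side in cells with Cd69 or Ifng and in cycling cells. In the 4342 cells with a UMI of Cd69, an early activation and residency receptor, all 8 genes had ratios above 1 against matched cells without it, 6 of them in every library, Fosb in 5 and Atf3 in 4. Egr1 was highest there at 1.53 times (1.44 to 1.63), with 5.30, 2.52, 4.55, 2.43, 1.67 and 1.56 UMIs per 10,000 in libraries 1 to 6 beside 3.42, 2.06, 2.85, 1.78, 1.21 and 1.15 in the cells without Cd69. In the 1519 cells with Pdcd1, encoding the inhibitory receptor PD-1, Jun was at 0.623 (0.589 to 0.659), lower in 6 of 6 libraries, and Fos at 0.709 (0.660 to 0.762). Nr4a1 in these cells was at 1.11 (1.05 to 1.18) and higher in 3 of 6 libraries. In the 1103 cycling cells, with a UMI of Mki67 or Top2a, Jun was at 0.603 (0.563 to 0.646), and the other factors also had ratios below 1, Nr4a1 the nearest to it at 0.910.

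Ccr8 encodes the chemokine receptor that the study used to mark a Tconv population. The gate here took any cell with a Ccr8 UMI, Foxp3+ and CD8+ T cells included, so it is not that population. In these 581 cells Nr4a1 was 1.53 times as high (1.43 to 1.64) in 6 of 6 libraries. Atf3 was 2.07 times as high (1.70 to 2.50), with 2 libraries compared, both higher, and 0 UMIs in Ccr8+ cells of library 2. Nr4a1 had 9.41, 4.85, 8.57, 5.76, 4.06 and 4.87 UMIs per 10,000 in Ccr8+ cells of libraries 1 to 6, beside 5.61, 4.73, 6.71, 3.72, 2.95 and 3.25 in the rest. In library 2, with 35 Ccr8+ cells, the values nearly met. Jun in Ccr8+ cells was at 0.735 (0.683 to 0.791). In the 195 cells with Il13, a type 2 cytokine gene, Atf3 was 5.81 times as high (4.36 to 7.69), and Fos at 1.81, Nr4a1 at 1.79, Junb at 1.70 and Egr1 at 1.67 times were also higher, while Jun was at 0.509 (0.428 to 0.602). Of these cells 99 were in library 4, 49 in library 5 and 40 in library 6. In those libraries Atf3 had 0.872, 0.851 and 1.39 UMIs per 10,000 in cells with Il13 and 0.164, 0.228 and 0.232 in the others. No library had enough expected Atf3 UMIs in cells with Il13 for its direction to be counted. The cells of each state and their comparison cells were not matched by CD4+ Tconv or CD8+ gate.

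In the 3010 cells with Ifng, the interferon gamma gene, Atf3 was at 0.557 (0.468 to 0.662) and Nr4a1 at 1.13 (1.08 to 1.19), the latter higher in all libraries. Counted past 1.5-fold, 1 gene was higher in cells with Cd69 (Egr1, beside 1.67% of all genes, with 0 lower beside 2.09%), 2 in cells with Ccr8 (beside 7.08%, with 0 lower beside 8.81%) and 5 in cells with Il13 (beside 12.3%). Lower by that much were 1 gene in cells with Pdcd1 (Jun, beside 3.01%), 2 in cycling cells (Jun and Atf3, beside 7.09%, with 0 higher beside 10.3%), 1 in cells with Il13 (Jun, beside 18.6%) and 1 in cells with Ifng (Atf3, beside 3.75%).

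**Figure D5:**
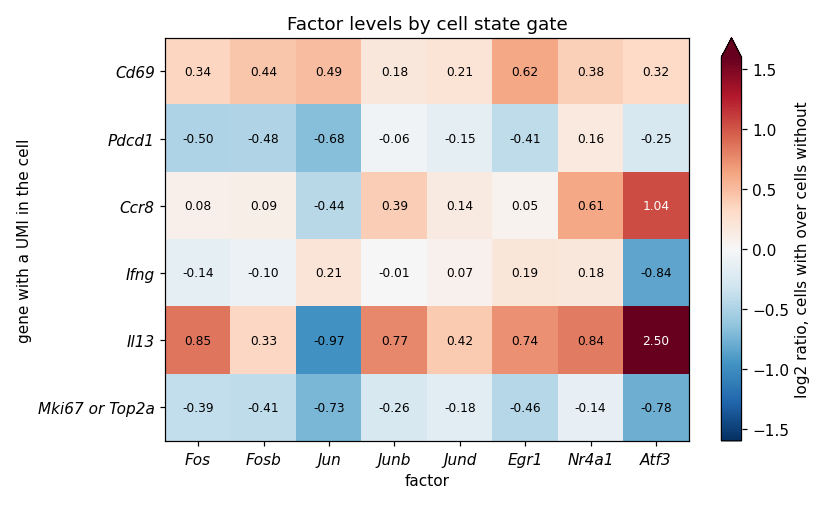
Log2 ratio of each factor (horizontal axis) in cells with a UMI of the gene on the vertical axis over cells without, matched by library and depth bin; colour runs from -1.6 to 1.6 and Atf3 in cells with Il13 (2.50) lies beyond it. Jun is below 0 in the Pdcd1, Ccr8, Il13 and cycling gates, where Nr4a1 runs from -0.14 to 0.84. Both are above 0 in the Cd69 and Ifng gates.

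Transcripts of other cell types were rare. Among the markers measured, 2 myeloid genes (Csf1r, Cd68), 3 B cell genes (Cd79a, Cd79b, Igkc), 2 stromal genes (Col1a1, Sparc) and 4 melanoma genes (Pmel, Mlana, Dct, Tyrp1) were found together in 559 cells, 4.36% of all, and summed to 0.160 to 0.536 UMIs per 10,000 by library. The other listed markers of these types, such as Lyz2 and Dcn, were not analysed here. Cells with such a UMI held 5.04% of the UMIs of the 8 factors, at 45.6 per 10,000 beside 65.8 in the rest. Without these cells the median log2 ratio in CD8+ T cells went from -0.40 to -0.38.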

How the data were processed

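Live TCRβ+ T cells were sorted from tumours of 3 PBS-treated and 3 DTx-treated samples. The authors made 5′ Chromium libraries, mapped them (mm10 in the methods, mm9 in the submitters' processing notes), merged them with Cell Ranger and filtered cells in Seurat by genes detected and mitochondrial share. The deposited table gives raw UMI counts of each gene in every cell, as whole numbers. The annotation version is not given in the sources used here. The table held 12818 cells from 6 libraries with median depths of 610 to 2499.5 UMIs. No label matched library to sample, so the pool was treated as 1 sample and no p-value was computed. 76 barcodes occurred in more than 1 library, at most 8 in any pair of libraries, with 12742 distinct barcodes. No doublet caller was run, and whether doublets were removed before deposit is not given in the sources used here.

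Levels are UMIs per 10,000 UMIs. Sets of cells were compared pairwise as observed over expected UMIs, with expectations from the comparison cells of the same library, and also of the same of 10 depth bins where cells with and without a transcript were compared. On the log2 scale 0.5 was added to both numbers. Genes needed 20 UMIs over both gates, or 50 in the pool for cells with and without a transcript. A gene was counted past 1.5-fold, and pairs past 1.2 times the expected number. Intervals are exact 95% Poisson or conditional binomial intervals. Python 3.11.15, numpy 2.4.6, scipy 1.17.1 and pandas 2.3.3 were used. The gate comparison and the sharing of cells by pairs were tested on simulated data. Simulated gate counts were drawn per gate and library, without the uneven spread over cells seen here. Comparisons of cells with and without a transcript were not simulated.

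The 8 factors were named by rule. Of each list the 2 highest and 2 lowest genes of a comparison are named, and further genes named beside them were chosen after their values were seen. The factors and lists were chosen with earlier results of these data known. Some genes of these lists, and the results that need them, are not reported here. Batf is on both the TCR-induced and the bZIP partner list. Alternatives were cell depth, the denominator, matching, gates, list filters and each library left out. Coordinates are from GENCODE M21 (GRCm38) and promoter sequences from RefSeq.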

Additional observations from a re-analysis of the deposited data

Results flagged for a closer look

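UMIs of markers of cell types other than T cells were found above the limit of 3 counts that a count of 0 allows. The measured myeloid markers summed to 181 UMIs, the B cell markers to 550, the stromal markers to 10 and the melanoma markers to 67 in the pool, and their part in the levels of the 8 factors was not tested.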

How the results depend on the processing

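Alternatives were run for the summed level, the library range, the medians and the 8 factors between gates, and not for the cell states or for single genes of the lists. Junb and Atf3 in CD8+ T cells, the factors past 1.5-fold between gates, kept their sign under each alternative. The summed level of the 8 factors, 64.4 UMIs per 10,000, was 58.1 in cells with at least 1000 UMIs, 100.03 without ribosomal protein and mitochondrial genes in the denominator, 79.6 as a mean over cells, 77.7 with cells thinned to 500 UMIs, 65.8 without cells carrying markers of other cell types and 57.3 to 71.3 with a library left out. The range between libraries, 2.72-fold, was 3.42-fold with the changed denominator, 2.58-fold as a mean over cells, 2.62-fold thinned and 2.52-fold to 2.72-fold with a library left out. Of the list medians, dissociation-linked genes in cells with Fos moved from 0.45 to 0.58 with 2 or more Fos UMIs. In cells with Nr4a1, matching by library alone moved the TCR-induced median from 0.35 to 0.49 and the dissociation-linked median from 0.36 to 0.25, the CD8+ gate alone gave 0.24 for the latter, and leaving out a library gave 0.25 to 0.40. The medians over CD8+ and Foxp3+ gates, the pair median and the TCR-induced median in cells with Fos stayed within their counting intervals under every alternative run. Of 208 alternative values for single factors between gates, 176 stayed within the interval of the main value. Giving each library the same weight put Foxp3+ log2 ratios of Fos, Jun, Jund and Atf3 past 1.5-fold. Junb in CD8+ T cells fell short of 1.5-fold in cells with at least 1000 UMIs (-0.56), with depth matched (-0.56) and with the changed denominator (-0.58). The cause of these changes was not tested. The alternatives without cells carrying other markers and without heat shock genes (0.45 in cells with Fos, 0.37 with Nr4a1) were chosen after seeing the data. No paired analysis was possible because the library numbers of the cells are not tied to the replicate numbers of the samples. The Foxp3+ comparison rests on 97 cells with a median of 1532 UMIs.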
